A study of Mus musculus with 9 samples.

Results

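Interferon-high tumour cells were the 15% of each library's tumour cells with the most unique molecular identifiers (UMIs) of Ifit1, Ifit3, Isg15, Igtp and Ifi47, summed and scaled to 10000 UMIs of the cell. They numbered 5073 of 33853 tumour cells. Tumour cells had over 500 detected genes, fewer than 7500, and a mitochondrial share of UMIs under 15%. They held at least 1 UMI of the epithelial keratin Krt8 or of H2BMc, the transcript of a histone 2B-mCherry reporter carried by the injected cells, and no UMI of the leukocyte gene Ptprc or the endothelial gene Pecam1. Cells with 2 or more UMIs of at least 3 of the mitotic genes Cdc20, Cenpa, Ccnb2, Ccnb1, Cdkn3 and Pttg1 were left out. The cells came from 9 primary breast tumours raised by MFP (mammary fat pad) injection of 168FARN, a mouse mammary tumour line, into female Balb/c mice, and each complete tumour suspension gave 1 droplet-based 5′ library. The 3 groups were WT, Kmt2c KO and Kmt2d KO, each knockout edited in the gene of 1 of the paired histone H3 lysine 4 methyltransferases, and all 3 carried the reporter. Each knockout was a sorted pool of cells co-transfected with 3 guides against exon 1 and Cas9, so that 3 tumours of a group replicate the mouse and not the knockout. The mice were bought at 5 to 6 weeks of age, and the sources used here do not give their age at harvest or say whether WT cells received a guide.

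The 9 libraries held 21529691 to 125617312 UMIs and gave 497 to 7620 tumour cells and 74 to 1143 interferon-high cells each. Interferon-high cells numbered 108, 247 and 74 in WT libraries 1, 2 and 3, 1044, 769 and 521 in the Kmt2c KO libraries and 595, 572 and 1143 in the Kmt2d KO libraries. Library numbers only name libraries within a group, and this order is kept throughout. WT tumour cells were deeper, with a median of 11326 to 17251 UMIs per cell in the 3 libraries against 6687 to 10374.5 in the knockouts. Kmt2d KO library 2 stood apart from the other Kmt2d KO libraries on the summed markers and on Isg15, Ifit1, Igtp, Iigp1 and Gbp2, among others. It also stood apart on genes outside the interferon lists, such as Col3a1, Eml2 and Mrgprx2, but not on all, Adm for instance. The Kmt2d KO results that rest most on this library are given with and without it. Of the tumour cells, 4.14% carried a barcode that another library also held (698 barcodes). Levels are in CPM, the UMIs of a gene in every 1000000 UMIs, summed over the cells of a library. Replicates were separate tumours, and p-values measure the spread between them.

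Interferons are secreted signals that set cells into an antiviral state. Type I interferons (Ifna, Ifnb1) are made by cells that sense foreign or misplaced nucleic acid and act through the receptor Ifnar1 and Ifnar2 and the kinases Jak1 and Tyk2. Interferon gamma, made mainly by T cells and natural killer cells, acts through Ifngr1 and Ifngr2 and the kinases Jak1 and Jak2. Both end in transcription factors that bind short promoter elements, the interferon-stimulated response element (ISRE) and the gamma-activated site (GAS). In mammary tumours the same programme raises antigen presentation, chemokines that draw T cells, and the checkpoint ligand Cd274 (PD-L1). Of the genes that chose the cells, Ifit1 and Ifit3 bind viral RNA and hold back its translation, Isg15 is a ubiquitin-like protein joined to other proteins, and Igtp and Ifi47 are immunity-related GTPases that act on membranes around intracellular pathogens.

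The promoters of the 5 genes are shown because both pathways end in factors that bind the ISRE or the GAS. The windows lie before the annotated start in the RefSeq promoter table (GRCm38.p6, the assembly family of mm10), which held all 5 genes. Each is printed 5′ to 3′ on the gene's strand, and capitals mark the ISRE core, which was searched as GAAA, any 2 bases and GAAA, or as its reverse complement, TTTC, any 2 bases and TTTC. Overlapping matches are joined.
Isg15 (chr4:156200860-156200911, minus strand): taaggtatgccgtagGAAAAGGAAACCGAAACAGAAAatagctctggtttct
Ifit1 (chr19:34640770-34640828, plus strand): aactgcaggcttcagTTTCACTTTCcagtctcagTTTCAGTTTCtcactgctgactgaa
Ifit3 (chr19:34583358-34583431, plus strand): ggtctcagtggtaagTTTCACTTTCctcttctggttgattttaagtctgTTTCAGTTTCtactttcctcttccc
Igtp (chr11:58199507-58199546, plus strand): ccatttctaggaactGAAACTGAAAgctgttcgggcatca
Ifi47 (chr11:49076527-49076586, plus strand): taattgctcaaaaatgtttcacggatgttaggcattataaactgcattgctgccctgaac
In the 250 bases before the start, Isg15 held 3 matches, 2 of them overlapping the one before, Ifit1 and Ifit3 held 2 each and Igtp held 1. These letters were not in the window of Ifi47, whose last 60 bases before the start are printed. On both strands, the core was found in 3.46% of the 27025 genes in the table. The GAS letters TTCNNNGAA were found in 8.13% of all genes and in Igtp alone of the 5. Among the other genes described here, the core was found in 8 of 8 interferon-induced GTPases with a promoter in the table, in 8 of 24 antiviral effectors and in 2 of 19 genes of MHC class I presentation. GAS letters were found in 5 of the 8 GTPases and in 3 of the 24 effectors.

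The same rank meant very different levels in different tumours. The lowest summed marker level among interferon-high cells, per 10000 UMIs, was 2.13, 2.23 and 2.6 in the WT libraries, 25.1, 39.0 and 39.0 in the Kmt2c KO libraries and 3.52, 23.4 and 5.41 in the Kmt2d KO libraries. The first cell outside lay at most 0.0275 below it in any library, so that the limit cut a continuous range. The median level inside was 4.6, 4.10 and 6.77 in WT, 40.7, 58.1 and 55.4 in Kmt2c KO and 8.41, 36.7 and 9.32 in Kmt2d KO. Outside it was 0, 0 and 0.199 in WT, 5.16, 6.76 and 9.86 in Kmt2c KO and 0, 6.69 and 0 in Kmt2d KO. Thus the median tumour cell that was not chosen in a Kmt2c KO tumour stood at or above the level of the median chosen cell in 2 of the 3 WT tumours. The values of the 5 markers, which chose the interferon-high cells, are a description and were not tested.

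Isg15 was the most abundant of the 5 genes in every library, in interferon-high and in other cells. Its level in interferon-high cells, in CPM, was 520.3, 513 and 869.8 in WT, 2582, 3515 and 3329 in Kmt2c KO and 906, 2274 and 1005 in Kmt2d KO. In the other tumour cells it was 30.0, 25.6 and 26.7 in WT, 331, 445 and 529.6 in Kmt2c KO and 40.2, 301 and 51.9 in Kmt2d KO. Ifit1 reached 205, 134 and 367 in WT, 551, 787 and 801 in Kmt2c KO and 225, 599.9 and 279 in Kmt2d KO in interferon-high cells. Igtp reached 98.8, 92.9 and 213 in WT, 694, 787 and 992 in Kmt2c KO and 148, 804 and 181 in Kmt2d KO. For each of these genes the 3 Kmt2c KO libraries and Kmt2d KO library 2 were highest, and the other 2 Kmt2d KO libraries lay near or within the range of the WT libraries. The high-to-other ratio was smallest in those 4 libraries and ran from log2 2.65 to 4.98 for Isg15 and from log2 3.17 to 6.93 for Ifit1. The other cells of the Kmt2c KO tumours also held the transcripts, with Ifit1 at 46.8, 74.1 and 88.3 against 1.88, 2.25 and 2.02 in WT.

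**Figure D1:**
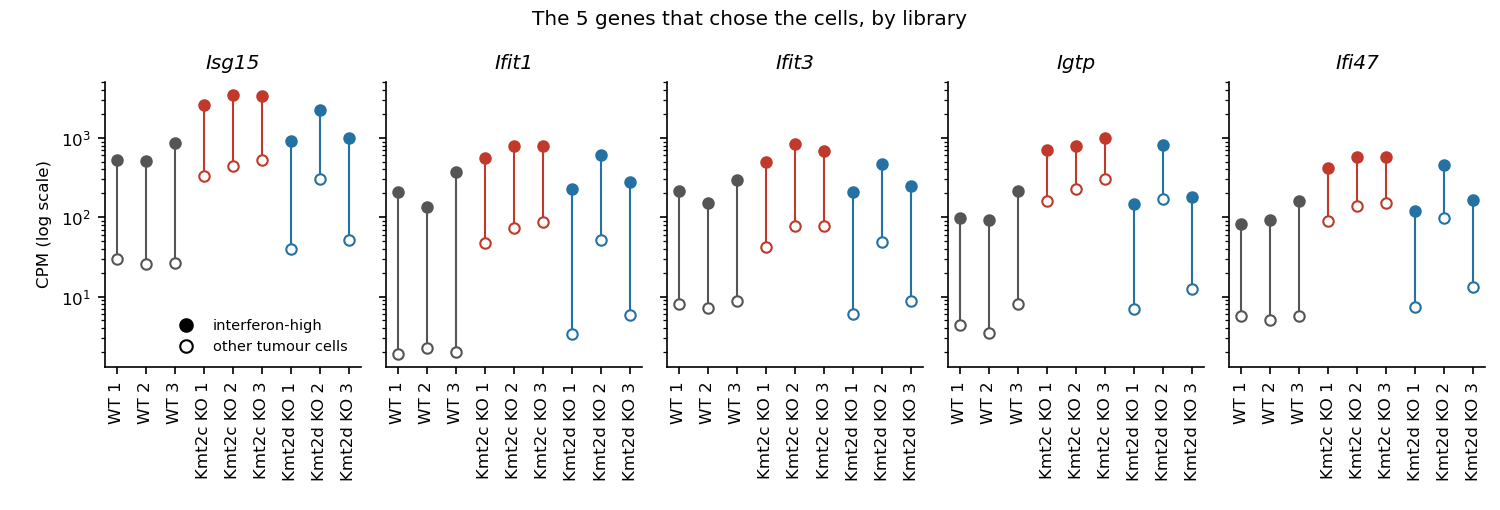
Level of the 5 genes that chose the cells, in CPM on a log scale, in each of the 9 libraries. Filled points are the summed interferon-high cells and open points the summed other tumour cells of a library, and a line joins the pair. Isg15 in the other cells of the Kmt2c KO libraries (331, 445 and 529.6) stood near Isg15 in the interferon-high cells of the WT libraries (520.3, 513 and 869.8).

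The share of all marker UMIs that fell in the chosen cells was, in percent, 77.4, 76.1 and 86.7 in WT, 49.7, 48.3 and 45.4 in Kmt2c KO and 79.4, 54.2 and 70.5 in Kmt2d KO. This share was above that of the other 4 libraries in WT and in Kmt2d KO libraries 1 and 3. Cells with UMIs both of the Ifit1, Ifit3 and Isg15 group and of the GTPases Igtp and Ifi47 made up, in percent of interferon-high cells, 61.1, 47.8 and 63.5 in WT, 93.7, 96.7 and 98.8 in Kmt2c KO and 66.6, 95.1 and 43.8 in Kmt2d KO. These shares were taken at each cell's own depth. The GTPases gave 16.2% to 27.3% of the marker UMIs of interferon-high cells and 19.6% to 39.8% of those of other cells. In Kmt2d KO library 3 the chosen cells were shallow, with a median of 2568 UMIs against 7718 in its other cells, and 34.1% of them held 1 marker UMI in all. In the other libraries that share was at most 6.48%. Median depth was lower inside than outside in 7 of 9 libraries, and the median mitochondrial share was higher inside in 8 of 9.

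A limit common to all libraries shows how many cells reached a given level. Each cell was thinned to 2000 UMIs, which left out 0.892% to 30.9% of tumour cells as too shallow, most in Kmt2d KO library 3. Cells with 3 or more marker UMIs of the 2000 made up, in percent of tumour cells, 3.80, 3.01 and 4.34 in WT, 33.4, 42.8 and 49.6 in Kmt2c KO and 6.14, 35.8 and 5.66 in Kmt2d KO. In WT these were 27, 49 and 21 cells. The group means were 3.71% ± 0.670 for WT, 41.9% ± 8.14 for Kmt2c KO and 15.9% ± 17.3 for Kmt2d KO (SD, n = 3 each). All Kmt2c KO libraries lay above all WT libraries, and so did the Kmt2d KO libraries, of which libraries 1 and 3 exceeded the highest WT library by little. This last separation held at 1 or more UMIs and with Ifit1, Ifit3 and Isg15 alone, and at no other limit tried. WT library 3 was at 3.93% against 3.45 and 2.91% in Kmt2d KO libraries 1 and 3 at 5 or more UMIs, and it also exceeded at least 1 of them after thinning to 1000 or 4000 UMIs, without thinning and with Igtp and Ifi47 alone. Kmt2c KO stood 38.2 percentage points above WT, and Kmt2d KO stood 12.2 points above it with Kmt2d KO library 2 and 2.19 without it. Kmt2d KO minus Kmt2c KO was -26.0 points, less than the range of the Kmt2d KO libraries. The level is set on the genes that chose the cells, and these shares too are a description with no test.

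**Figure D2:**
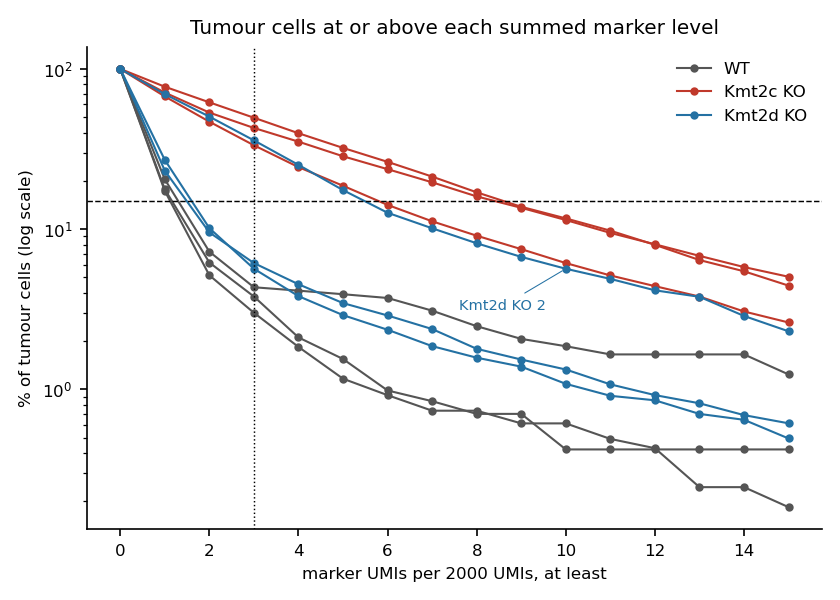
Percent of tumour cells (log scale) that held at least a given number of marker UMIs after thinning each cell to 2000 UMIs, 1 line per library, coloured by genotype. The dotted line marks the common level of 3 UMIs and the dashed line the 15% that were chosen in each library. The Kmt2c KO lines and that of Kmt2d KO library 2 run well above the others at the common level. Towards the right WT library 3 comes nearer, at 1.24% against 2.30% in Kmt2d KO library 2 at 15 or more UMIs.

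Which other genes moved with the markers was described by the log2 ratio of interferon-high to other cells of the same library, with no test, since these cells were chosen by expression. Among 6676 genes of at least 20 CPM in interferon-high cells, leaving out the 5, 77 (1.15%) were at least 2-fold higher in all 9 libraries. The median gene had a log2 ratio of -0.02. By any amount, 724 (10.8%) were higher in all 9 and 1031 (15.4%) lower, and the number at least 2-fold lower in all 9 was 0 (0.0%). The filter was set on interferon-high cells and so kept genes that reached 20 CPM only there, while it dropped genes that did so only in the other cells. With 20 CPM asked of the other cells instead, 45 of 6691 genes were at least 2-fold higher and 1 (Wwc1) at least 2-fold lower in all 9, and with 20 CPM asked of the mean of both, 71 and 0 of 6703, both filters being chosen after seeing the data. The counts in the next paragraphs are to be read against these shares.

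Interferon transcripts themselves were nearly absent from the tumour cells. The 8 listed ligands together gave at most 2.71 CPM in interferon-high cells of any library and 0.406 in other cells. Ifnb1 was higher in 8 of 9 libraries, at 2.71 CPM or less. The summed interferon-high cells held 1477413 to 7842590 UMIs a library, so that this direction rests on few UMIs. The receptor genes were present and differed little between the cells (median log2 ratio 0.14), Ifngr1 being higher in 9 of 9 libraries at log2 0.24 to 0.66. Of the kinases and transcription factors, Jak1 stayed between log2 0.01 and 0.21. Of the 9 members of that list at 20 or more CPM, 8 were higher in all 9 libraries, 2 of them at least 2-fold, and the list's median log2 ratio was 0.65. Irf7, the factor that amplifies type I interferon production, had 194, 142 and 334 in WT, 659.9, 999 and 985 in Kmt2c KO and 284, 639 and 308 in Kmt2d KO CPM in interferon-high cells against 15.6, 13.3 and 17.6 in WT, 194, 264 and 353 in Kmt2c KO and 29.1, 141 and 34.8 in Kmt2d KO in other cells. Its high-to-other ratio ran from log2 1.48 to 4.18. Stat2, a partner in the complex that binds the ISRE, was higher at log2 1.31 to 2.89, Irf9, its DNA-binding subunit, at log2 0.67 to 1.83, and Irf1, the factor induced by interferon gamma, at log2 0.90 to 2.68.

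The antiviral effectors formed the broadest group. Of 27 at 20 or more CPM, 23 were at least 2-fold higher in all 9 libraries, and the list's median log2 ratio was 1.77 (library medians 1.46 to 2.26). Oasl2, of the oligoadenylate synthetase family, was higher at log2 1.73 to 4.65, Rtp4 at log2 1.39 to 3.29, Ifi44 at log2 2.29 to 5.21 and Bst2, which tethers budding virus to the cell surface, at log2 1.19 to 2.57. The membrane protein Ifitm3, the most abundant member, reached 2655, 2864 and 3505 in WT, 6950.1, 8446 and 7537 in Kmt2c KO and 4178, 5663 and 3888 in Kmt2d KO CPM in interferon-high cells. In other cells Ifitm3 was also high, at 1263, 1339 and 1237 in WT, 3455, 3959 and 3851 in Kmt2c KO and 1776, 2441 and 1682 in Kmt2d KO, and its ratio was log2 0.97 to 1.5. Ifi27 was higher in 5 of 9 libraries only, with log2 values of -0.68 to 0.53. Among the nucleic acid sensors, 4 of 5 were at least 2-fold higher in all libraries. Zbp1, which senses Z-form nucleic acid, was higher at log2 1.41 to 3.63, Dhx58 at log2 2.11 to 2.99 and Ddx58 (RIG-I) at log2 1.27 to 1.86. The DNA sensor Cgas was low throughout and was higher in 2 of 9 libraries, and Mavs, the adaptor of the RNA sensors, in 1.

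The interferon-induced GTPases other than Igtp and Ifi47 had a median log2 ratio of 2.46 (library medians 1.38 to 3.67), with 10 of 11 at least 2-fold higher in all libraries. Their median was above that of the effectors in the WT and Kmt2d KO libraries and below it in the 3 Kmt2c KO libraries. Iigp1, an immunity-related GTPase, had 98.8, 52.1 and 162 in WT, 415, 498 and 661 in Kmt2c KO and 94.3, 614 and 131 in Kmt2d KO CPM in interferon-high cells and 1.68, 1.92 and 2.61 in WT, 119, 164 and 243 in Kmt2c KO and 3.63, 174 and 8.66 in Kmt2d KO in other cells. Its ratio was steepest in WT and in Kmt2d KO libraries 1 and 3. The guanylate-binding protein Gbp2 reached 217, 220.5 and 461 in WT, 885, 1064 and 1307 in Kmt2c KO and 262, 1109 and 286 in Kmt2d KO in interferon-high cells, with ratios of log2 1.27 to 3.34. Chemokines split by member. Cxcl10, a ligand of the chemokine receptor Cxcr3 of T cells, was higher at log2 2.80 to 6.66. Ccl5 was higher at log2 1.69 to 4.83, Ccl7 at log2 0.75 to 2.92 and Ccl2 at log2 0.55 to 2.97. The neutrophil chemokine Cxcl1, however, was higher in 6 of 9 libraries. Cxcl10 in interferon-high cells was 112, 44.3 and 638 in WT, 487, 817 and 839.9 in Kmt2c KO and 77.5, 543 and 64.8 in Kmt2d KO CPM. WT library 3 lay among the Kmt2c KO libraries for Cxcl10 and above all of them for Ccl5, at 882 against 421, 527 and 323.

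Antigen presentation through MHC class I was higher by smaller factors on a high base. Of 22 genes, 19 were higher in all 9 libraries, against 10.8% of all genes, but 1 by 2-fold or more in all (Psmb10, an immunoproteasome subunit, log2 1.43 to 2.33). The heavy chains H2-K1 and H2-D1 were higher at log2 0.17 to 0.70 and log2 0.20 to 0.68, the light chain B2m at log2 0.38 to 0.76 and the peptide transporter Tap1 at log2 0.96 to 1.94. The chaperones Canx and Pdia3, which all cells need for protein folding, were higher in 1 and 4 of 9 libraries. Of 5 checkpoint ligands at this level, Cd274 and Lgals9 were at least 2-fold higher in all libraries, Cd274 with 24.5, 12.1 and 33.8 in WT, 75.3, 96.1 and 133 in Kmt2c KO and 21.9, 93.2 and 21 in Kmt2d KO CPM in interferon-high cells (log2 1.61 to 3.22). Cd47, the signal that holds off macrophages, was higher by less (log2 0.15 to 0.57), and Pvr was higher in 2 of 9. The feedback regulator Usp18, which removes Isg15 from proteins, was higher at log2 2.55 to 4.92, Socs1, an inhibitor of Jak kinases, at log2 0.40 to 1.32, and Socs3 and Ptpn2 by at most log2 0.31 and 0.40. Among cell death genes, Mlkl, the executor of necroptosis, was higher at log2 0.55 to 1.11 and Casp1 at log2 0.55 to 1.05, while Casp8 was lower in all 9 libraries (log2 -0.78 to -0.23).

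**Figure D3:**
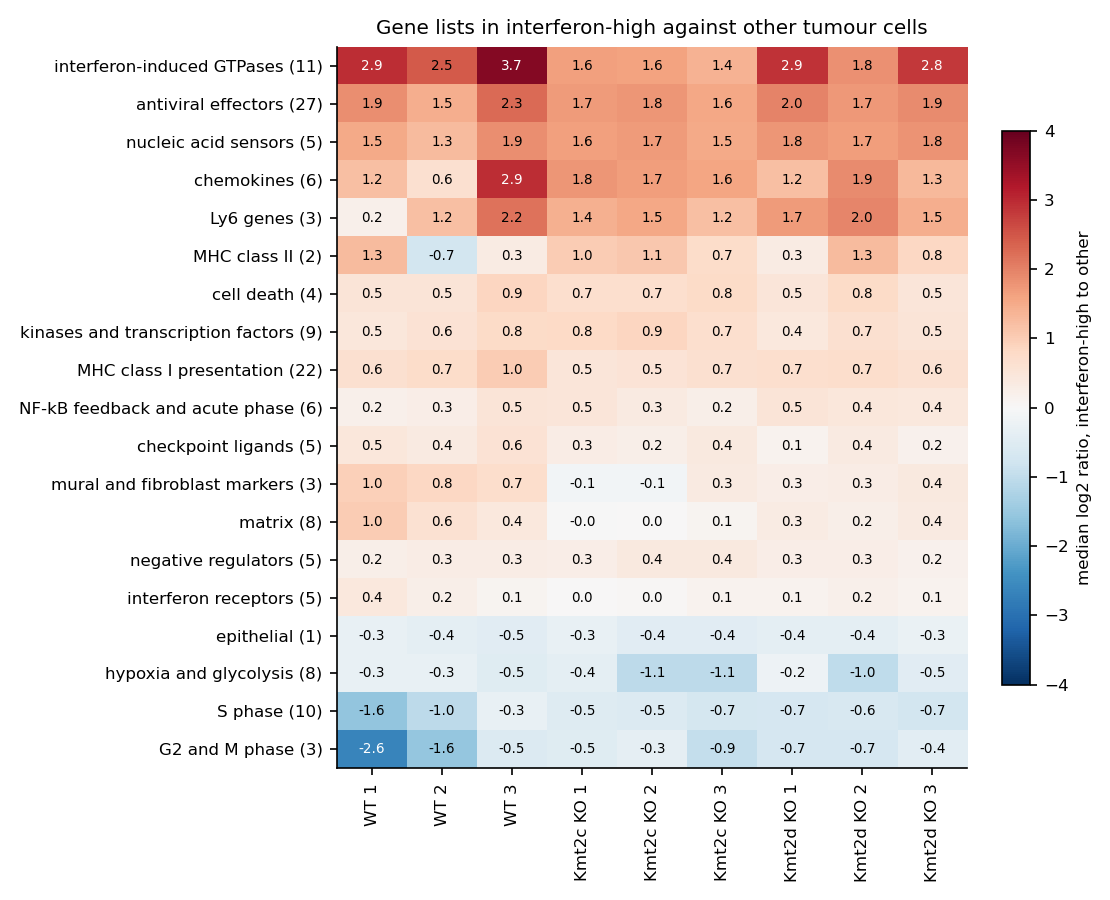
Median log2 ratio of interferon-high to other tumour cells over the genes of each list, in each of the 9 libraries. In brackets stands the number of genes of at least 20 CPM, and colour and number both give the median. The effector, sensor, GTPase and MHC class I lists are positive in every library, and the S phase, G2 and M phase and hypoxia lists are negative in every library.

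Growth and hypoxia genes were lower in interferon-high cells. All 10 S phase genes were lower in all 9 libraries, against 15.4% of all genes (list median log2 -0.67), among them the replicative helicase subunit Mcm6 (log2 -1.95 to -0.54), the polymerase clamp Pcna (log2 -1.65 to -0.19) and the ribonucleotide reductase Rrm2 (log2 -3.39 to -0.21). Of the G2 and M phase genes, 3 reached 20 CPM and all of them were lower in all 9, Mki67 at log2 -3.21 to -0.21. The rule had already left out cells with many mitotic UMIs, in interferon-high and other cells alike. Of 8 hypoxia and glycolysis genes, 6 were lower in all 9, with the glycolytic enzyme Pgk1 at log2 -1.11 to -0.56 and the glucose transporter Slc2a1 at log2 -1.10 to -0.11. Krt8 was lower in all 9 at log2 -0.45 to -0.27, and the reporter H2BMc was higher in 7 of 9. Outside the lists, the genes lowest in every library were led by Hmga1, a chromatin protein of dividing cells (log2 -0.85 to -1.84), Nefl (-0.80 to -1.76), the thymidine kinase Tk1 (-0.68 to -2.81) and Odc1, the first enzyme of polyamine synthesis (-0.68 to -1.45). These were named after their values were seen. Median depth per cell was also lower inside than outside in 7 of 9 libraries, and its part in these differences was not tested. In cells of at least 4000 UMIs, an alternative chosen after seeing the data, the S phase median was -0.67 and the hypoxia median -0.45.

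Genes outside the lists were ranked by their lowest ratio over the libraries. Slfn2, of the Schlafen family, led with log2 2.08 to 4.76, followed by Phf11d (1.99 to 2.92), Oas1g (1.77 to 2.90), Phf11b, A530040E14Rik, Sp110, Tmem140 and Ifi205. Of these, Oas1g shares close sequence with other oligoadenylate synthetases, and reads could have been split between them. Apod, a lipid-carrying apolipoprotein, was next, with 189, 145 and 137 in WT, 305, 623 and 751 in Kmt2c KO and 259, 449.7 and 287 in Kmt2d KO CPM in interferon-high cells and 37.1, 32.4 and 28.7 in WT, 108, 205 and 256 in Kmt2c KO and 78.3, 92.4 and 94.4 in Kmt2d KO in other cells. It was higher in all 9 libraries, at log2 1.5 to 2.32. The remainder of the 15 were Gbp2b, Trim30d, Gm4951, Tor3a, Apol9a and Il18bp, at lowest ratios of 1.42 to 1.48. Across single cells, genes outside the lists whose patterns were among the most like the summed markers were Apol9a (mean Spearman's rho over 9 libraries 0.224), Phf11d (0.202), Apod (0.200), Gm4951 (0.195) and Gbp2b (0.189), of 5889 genes compared. Of the listed genes, Ifitm3 (0.380) and Bst2 (0.332) came closest after the 5 themselves. The cells of a library share its depth and free RNA, counts were sparse, and these rho values are a description.

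Markers of other cell types were checked because immune cells also express these genes. The sum of 10 macrophage markers was 23.3 to 36.6 CPM in interferon-high cells over the 9 libraries, 20.2 to 48.3 in other tumour cells and 5494 to 13952 in cells with Ptprc UMIs. It was higher inside than outside in 6 of 9 libraries, and 7 of the 10 markers had the higher mean inside. Sums of T and natural killer cell, dendritic and neutrophil, and B cell markers were at most 1.53 inside, with Ncr1, S100a9 and Ms4a1 among those at 0. Endothelial markers summed to 1.29 to 13.5 inside and 3.32 to 10.9 outside. The 5 mural and fibroblast markers summed to 262 to 890.2 inside against 176 to 397 outside and were higher inside in 9 of 9 libraries, most in WT library 1 (890.2 against 397). Clec3b was the most abundant of them, at 678, 489.9 and 339.8 in WT, 235, 264 and 259 in Kmt2c KO and 269.5, 166 and 234 in Kmt2d KO inside. The part of fibroblast-like cells or of their RNA in the results was not tested.

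Genotypes were compared on the summed interferon-high cells of the 9 libraries with edgeR's quasi-likelihood test, Benjamini-Hochberg adjusted over 11753 genes, the 5 markers left out. Krt8 and H2BMc, which admitted cells as tumour cells, stayed in the fit, and Krt8 is given as a value only. Kmt2c was at 77.5, 67.7 and 55.5 in WT, 59.5, 61.4 and 74.5 in Kmt2c KO and 56.1, 76.0 and 62.9 in Kmt2d KO CPM in interferon-high cells and Kmt2d at 27.1, 16.3 and 15.6 in WT, 32.3, 24.2 and 37.5 in Kmt2c KO and 27.6, 39.9 and 32.9 in Kmt2d KO, and neither was called in any comparison. Whether the edits left the transcripts in place was not tested, and these levels do not check the labels. Kmt2c KO against WT gave 696 higher (5.92%) and 692 lower genes (5.89%). Kmt2d KO against WT gave 52 higher (0.442%) and 72 lower (0.613%). Kmt2d KO against Kmt2c KO gave 0 (0.0%) by edgeR, with 1614 genes at an unadjusted p under 0.05, 108 by DESeq2, and 1676 by edgeR without Kmt2d KO library 2. The knockouts share the WT libraries. The 1388 calls for Kmt2c KO against WT became 450 without WT library 1, 326 without WT library 2, and 698, 517 and 715 without Kmt2c KO libraries 1, 2 and 3, and was 2372 without Kmt2d KO library 2, which enters the shared estimate of spread. The Kmt2d KO count of 124 became 31 and 23 without WT libraries 1 and 2, 65, 57 and 68 without Kmt2c KO libraries 1, 2 and 3, 65 without Kmt2d KO library 3 and 204 without Kmt2d KO library 2.

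At the same rank, interferon-high cells of Kmt2c KO tumours had more interferon-induced transcripts called higher than lower against those of WT tumours. Higher calls were made for 23 of 29 antiviral effectors tested (list median log2 fold change 1.85, against 0.00 over all genes), all 12 GTPases (2.26), 19 of 22 genes of MHC class I presentation (1.16, with Canx lower), 5 of 9 sensors, 5 of 10 kinases and transcription factors, 5 of 7 MHC class II genes and all 3 Ly6 genes. The same contrast over the other tumour cells gave 921 higher (6.36%) and 865 lower genes (5.98%) of 14473. Higher calls there took in 23 of 28 effectors (median 1.96), 11 of 12 GTPases (4.27), 19 of 22 class I genes (1.39), 5 of 7 class II genes and all 3 Ly6 genes. Calls on these lists were thus made in both sets of cells. Many of the calls in interferon-high cells were lost when 1 library was left out. Without WT library 1, without WT library 2 and without WT library 3 respectively, they numbered 0, 0 and 11 of 12 GTPases, 9, 8 and 19 of 22 class I genes, 16, 14 and 21 of 29 effectors, 2, 1 and 5 of 9 sensors and 3, 2 and 4 of 10 kinases and transcription factors. No class II call was left without any 1 WT library or without Kmt2c KO library 2 or 3, and 1 was without Kmt2c KO library 1. Without Kmt2c KO libraries 1, 2 and 3 the GTPase calls numbered 6, 2 and 2 and the sensor calls 5, 2 and 3. All 3 Ly6 genes were called with any 1 of the 9 libraries left out. The GTPase median without WT library 1 was 2.19 and without WT library 2 1.93. Without WT libraries 1, 2 and 3 the class II median was 3.76, 3.32 and 3.52, against 3.60 with all libraries. The class I median was 1.06, 1.11 and 1.35, against 1.16. Beside the class II genes, which macrophages also carry, the macrophage marker Fcer1g (log2 fold change 1.19 ± 0.28 (SE), adjusted p = 0.0215) was called higher, 1 of 7 macrophage markers tested, and so was the only endothelial marker tested, Cdh5 (log2 fold change 1.92 ± 0.46 (SE), adjusted p = 0.0227). These calls were lost under 11 of 19 and 8 of 19 alternatives, among them the omission of WT library 1 or 2. The part of such cells or their RNA in the class II calls was not tested. Bst2 stood at 536, 452 and 833 in WT, 2399, 3259 and 2542 in Kmt2c KO and 1079, 1917 and 1069 in Kmt2d KO CPM (log2 fold change 2.23 ± 0.27 (SE), adjusted p = 0.00112). Ly6a (Sca-1), a surface protein of progenitor cells, stood at 124, 193 and 432 in WT, 2267, 3505 and 4226 in Kmt2c KO and 458, 2285 and 444 in Kmt2d KO (log2 fold change 3.79 ± 0.66 (SE), adjusted p = 0.00547). For both genes all Kmt2c KO libraries lay above all WT libraries. Neither was called in the cells past the common level described above, Bst2 at 0.85 ± 0.19 (adjusted p = 0.0574) and Ly6a at 1.92 ± 0.47 (adjusted p = 0.0728) on the log2 scale. Psmb9, an immunoproteasome subunit, rose by 2.37 ± 0.35 (adjusted p = 0.00262), B2m by 1.13 ± 0.22 (adjusted p = 0.00889), Gbp2 by 1.91 ± 0.50 (adjusted p = 0.0295) and Cd274 by 2.24 ± 0.58 (adjusted p = 0.0297), all as log2 fold change ± SE. The complement component C3 stood at 4.52, 8.94 and 6.77 in WT, 120.0, 194 and 336 in Kmt2c KO and 43.3, 254 and 47.9 in Kmt2d KO (log2 fold change 4.98 ± 0.82 (SE), adjusted p = 0.00422). Of 7 chemokines tested, Cx3cl1 alone was called. Cxcl10 (log2 fold change 1.5 ± 0.89 (SE), adjusted p = 0.301) and Ccl5 (log2 fold change 0.40 ± 0.87 (SE), adjusted p = 0.812) were not, WT library 3 exceeding the lowest Kmt2c KO library in the first and all 3 in the second. No S phase gene or G2 and M phase gene was called (list medians 0.36 and 1.12). The calls on B2m, Gbp2 and Cd274 were lost without WT library 1 and without WT library 2, at adjusted p-values of up to 0.0919, 0.845 and 0.73 over all alternatives, with Gbp2 and Cd274 also lost without Kmt2c KO libraries 2 and 3. The calls on H2-D1, H2-Q7, Ly6e and C3 held under all 20.

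Other genes changed outside the interferon lists. Of 8 matrix genes tested, 6 were lower and 1 (Vim) was higher in Kmt2c KO (list median -1.82). The summed level of the whole list was not lower, at 12469, 12122 and 11727 CPM in WT and 12801, 12645 and 12579 in Kmt2c KO. In the other tumour cells 4 of 10 were lower and 2 higher (list median -0.42). Col3a1, a fibrillar collagen, stood at 406, 270.2 and 198 in WT, 7.09, 11.2 and 16 in Kmt2c KO and 95.2, 15.1 and 114 in Kmt2d KO CPM (log2 fold change -4.63 ± 0.61 (SE), adjusted p = 0.00155), and Kmt2d KO library 2 was again with the Kmt2c KO libraries. Of 3 mural and fibroblast markers tested, 2 (Clec3b and Pdgfra) were lower as well, and the part of such cells in the matrix calls was not tested. In the other tumour cells 0 of 5 such markers were lower and 1 was higher. By the interaction test given below, the high-to-other ratio was smaller in Kmt2c KO for 3 of 10 matrix genes and 2 of 4 such markers. The calls on Clec3b, Pdgfra and Vim were lost under 9 of 20, 7 of 20 and 8 of 20 alternatives, each without WT library 1, without WT library 2 and without Kmt2c KO library 2, and that on Clec3b without any 1 Kmt2c KO library. Krt8 was lower at a log2 fold change of -0.72, a description only, since the rule used Krt8 to admit tumour cells. Of 10 hypoxia and glycolysis genes, 4 were called higher in Kmt2c KO interferon-high cells (list median 0.54), against 8 in the other tumour cells. The 4 in interferon-high cells were Slc2a1 (1.33 ± 0.23 (adjusted p = 0.0049)), Car9 (1.43 ± 0.38 (adjusted p = 0.031)), Pgk1 (0.56 ± 0.15 (adjusted p = 0.0324)) and Ero1l (0.85 ± 0.25 (adjusted p = 0.0482)), of which Slc2a1 alone held under all 20 alternatives and the other 3 were lost without any 1 WT library and without Kmt2c KO library 1 or 2. Adm, a vasodilator peptide induced by hypoxia, was called lower at -0.62 ± 0.16 (adjusted p = 0.0276), a call lost under 8 of 20, among them the omission of WT library 1 or 2 and of Kmt2c KO library 1 or 2. The matrix protease Mmp3 stood at 26.5, 38.5 and 24.4 in WT, 249, 356 and 324 in Kmt2c KO and 186, 237 and 188 in Kmt2d KO CPM and rose in Kmt2c KO (log2 fold change 3.4 ± 0.21 (SE), adjusted p = 1.69e-05) and in Kmt2d KO (log2 fold change 2.75 ± 0.21 (SE), adjusted p = 0.000169). No alternative tried removed either call, and every library of either knockout exceeded every WT library. The largest rises in Kmt2c KO among genes with no overlap between the groups were Cd70, Mmp13, Hist1h3c, Qrfp and Eml2, all rare. Over the WT interferon-high cells they had 0, 0, 0, 0 and 1 UMIs, so that they passed the count filter through knockout libraries. Cd70, a ligand of Cd27 on T cells, had 0 UMIs in WT interferon-high cells and 111 in Kmt2c KO. With 3 UMIs put in for 0, Cd70 was 11-fold higher over the groups and the collagenase Mmp13 10.6-fold. The lower ends of the 95% counting intervals, which cover counting error only, were 8.80 and 8.48. The calls on Cd70, Mmp13 and Eml2 were lost under 8 of 20, 9 of 20 and 13 of 20 alternatives, each without any 1 WT library and without Kmt2c KO library 2 or 3, and those on Hist1h3c and Qrfp under 5 of 14 and 2 of 14, each without WT library 2. The largest falls were Rims1, Plpp6, Mrgprx2, Igf1 and Scn3a, each called with any 1 library left out. These genes were rare as well. Plpp6, Mrgprx2 and Scn3a had 34, 101 and 13 UMIs over the WT interferon-high cells, against 1, 5 and 1 in Kmt2c KO. Rims1, a protein of presynaptic active zones, stood at 15.5, 13.2 and 19.0 in WT, 0.142, 0 and 0 in Kmt2c KO and 0.848, 0 and 2.30 in Kmt2d KO CPM with 1 UMI over the Kmt2c KO group and 86 over WT (adjusted p = 0.000967). Igf1, a growth factor, had 3 UMIs in Kmt2c KO and 52 in WT, a ratio of 58.3 (95% counting interval 18.9 to 292, which covers counting error only).

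Against 0.442% of all genes tested that were called higher in Kmt2d KO interferon-high cells over WT, some listed interferon genes were called. These were 2 of 29 effectors (Oas1a, 1.48 ± 0.26 (adjusted p = 0.0241), and Rtp4, 1.31 ± 0.26 (adjusted p = 0.0368)), 2 of 22 class I genes (H2-Q6, 1.27 ± 0.20 (adjusted p = 0.0115), and H2-Q7, 1.06 ± 0.22 (adjusted p = 0.0437)) and Irf9 (0.61 ± 0.12 (adjusted p = 0.0359)), all higher. All 5 calls held without Kmt2d KO library 2, at adjusted p-values of 0.00291 to 0.0401. They were lost without WT library 1 and without WT library 2. Irf9 was lost without any 1 library other than Kmt2d KO library 2, and Rtp4 and H2-Q7 also without any 1 Kmt2c KO library. The highest adjusted p over all alternatives for the 5 was 0.325 to 0.884. H2-Q6 and H2-Q7 are near-identical copies whose reads could have been split. None of 12 GTPases was called, their median being 1.36 (log2) with all libraries and 0.28 without Kmt2d KO library 2. Gbp2, for instance, was at 262, 1109 and 286 CPM in Kmt2d KO and 217, 220.5 and 461 in WT (log2 fold change 0.89 ± 0.48 (SE), adjusted p = 0.432), and its log2 fold change without Kmt2d KO library 2 was -0.12 ± 0.26 (SE, adjusted p = 0.885). Cx3cl1, a membrane-bound chemokine, stood at 58.7, 72.7 and 65.7 in WT, 97.5, 99.6 and 100.4 in Kmt2c KO and 127, 117 and 132 in Kmt2d KO CPM and rose in Kmt2d KO (log2 fold change 0.93 ± 0.11 (SE), adjusted p = 0.00264) as in Kmt2c KO (log2 fold change 0.64 ± 0.11 (SE), adjusted p = 0.00623), the groups not overlapping. C3 rose by 4.03 ± 0.83 (adjusted p = 0.0437), or by 2.68 ± 0.48 (adjusted p = 0.00921) without Kmt2d KO library 2, and the call was lost under 13 of 20 alternatives, among them the omission of any WT library or any Kmt2c KO library. Adm stood at 69.7, 82.4 and 66.3 in WT, 37.1, 43.0 and 58.3 in Kmt2c KO and 23.7, 24.5 and 23.8 in Kmt2d KO and fell in Kmt2d KO (log2 fold change -1.60 ± 0.16 (SE), adjusted p = 0.0014), the only 1 of 10 hypoxia and glycolysis genes called. Col5a2 (-1.81 ± 0.27 (adjusted p = 0.0102)), Sparc (-0.54 ± 0.11 (adjusted p = 0.0362)) and Clec3b (-1.16 ± 0.22 (adjusted p = 0.032)) also fell, and these 3 calls were lost without WT library 1 and without WT library 2. The Sparc and Clec3b calls were lost under 13 of 20 and 13 of 20 alternatives. Among the largest rises were C3, Hist2h2bb, Fam178b and Mmp3, the calls on Hist2h2bb and Fam178b being lost under 8 of 19 and 14 of 20. Both were rare, with 3 UMIs each over the WT interferon-high cells against 92 and 90 in Kmt2d KO. They thus passed the count filter through knockout libraries. The largest falls were Trdn, Runx1t1, Rims1, Efemp1 and Ccn5, a secreted matrix-associated protein (31.6, 56.0 and 31.1 in WT, 3.26, 5.51 and 14.1 in Kmt2c KO and 4.58, 3.05 and 6.76 in Kmt2d KO CPM, -3.04 ± 0.45, adjusted p = 0.00901). Of these, Runx1t1 and Rims1 were lost without WT library 1 and without WT library 2, and Ccn5 without WT library 2.

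Since equal rank was not equal level, genotypes were also compared over the cells past the common level, an alternative chosen after seeing the data. Their summed marker level was 3040.3, 2744 and 4905 in WT, 2816, 3475 and 3331 in Kmt2c KO and 3011, 2895 and 2918 in Kmt2d KO CPM, from 21 to 2233 cells a library. Kmt2c KO against WT then gave 111 called genes of 11083, and Kmt2d KO against WT 6. WT gave 27, 49 and 21 cells, and the part of these small numbers in the lower count was not tested. The sizes changed as well. The median log2 fold change between Kmt2c KO and WT was 0.36 over the GTPases, 0.12 over the effectors and -0.20 over the sensors, and 0 GTPases and 0 sensors were called. Medians also fell over chemokines (-1.35, against 0.69 at equal rank), Ly6 genes (1.92, against 3.79) and cell death genes (-0.17, against 0.87). Some lists moved less or rose, with medians of 3.09 over class II genes (3.60 at equal rank), -1.59 over matrix genes (-1.82) and 0.85 over hypoxia genes (0.54). The MHC class I median was 0.36, with H2-Q6 (1.20 ± 0.24 (adjusted p = 0.0388)), H2-Q7 (1.10 ± 0.20 (adjusted p = 0.0202)) and H2-D1 (0.69 ± 0.15 (adjusted p = 0.048)) called.

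The common level is a floor, and levels above it were not matched, WT library 3 standing highest. Some genes differed between genotypes in these cells. Ly6c1 stood at 0, 24.9 and 31.5 in WT, 115, 156 and 195 in Kmt2c KO and 45.9, 91.3 and 41.2 in Kmt2d KO CPM in cells past the common level (log2 fold change 2.96 ± 0.51 (SE), adjusted p = 0.016), Ly6e rose by 0.87 ± 0.17 (adjusted p = 0.0312) and Ifi27l2a by 1.05 ± 0.22 (adjusted p = 0.0432). C3 stood at 2.57, 12.4 and 13.5 in WT, 114, 183 and 275 in Kmt2c KO and 55.2, 184 and 62.6 in Kmt2d KO (log2 fold change 4.25 ± 0.72 (SE), adjusted p = 0.0134). Mmp3 stood at 15.4, 26.6 and 15.7 in WT, 235, 322 and 299 in Kmt2c KO and 166, 198 and 205 in Kmt2d KO (log2 fold change 3.85 ± 0.24 (SE), adjusted p = 6.13e-06 in Kmt2c KO, and 3.25 ± 0.25, adjusted p = 6.67e-05, in Kmt2d KO). Ifit2, which belongs to the same family as the markers Ifit1 and Ifit3, went the other way. It stood at 485, 275 and 771 in WT, 149, 203 and 208 in Kmt2c KO and 193, 181 and 156 in Kmt2d KO, the WT libraries above all others, and was lower in Kmt2c KO (log2 fold change -1.44 ± 0.28 (SE), adjusted p = 0.0344). The receptor Ifngr1 was lower too (log2 fold change -1.12 ± 0.22 (SE), adjusted p = 0.0372). The collagens Col3a1 (-4.63 ± 0.59 (adjusted p = 0.00347)) and Col5a2 (-3.44 ± 0.40 (adjusted p = 0.0026)) were lower as at equal rank. No chemokine was called. Cxcl10 stood at 416, 110.1 and 2087 in WT, 223, 328 and 324 in Kmt2c KO and 131, 314 and 122 in Kmt2d KO, WT library 3 being highest by far.

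**Figure D4:**
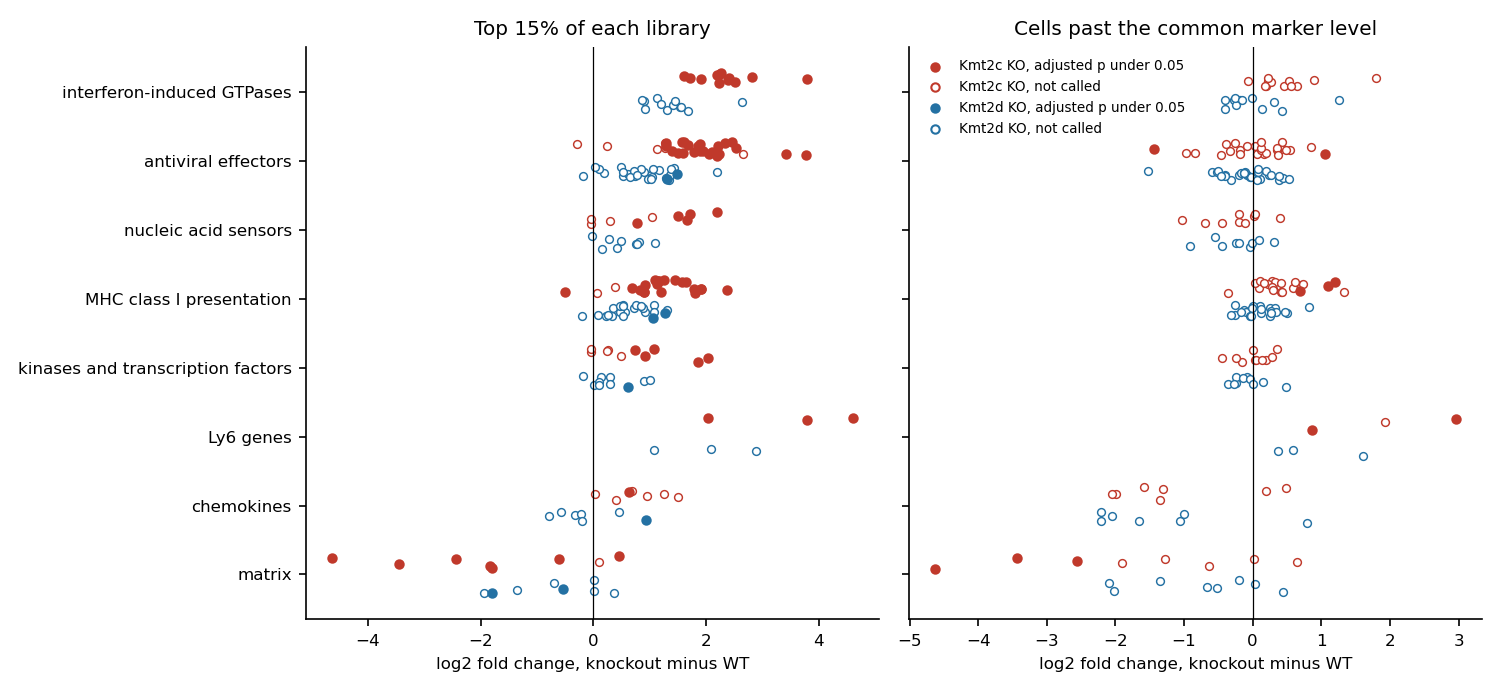
Log2 fold change of each knockout against WT for the tested genes of 8 lists (rows), in the interferon-high cells (left) and in the cells past the common marker level (right). Filled points had an adjusted p under 0.05 by edgeR. The GTPases lie at a median of 2.26 for Kmt2c KO on the left and 0.36 on the right, and the lowest point of the matrix row, Col3a1 in Kmt2c KO, at -4.63 on the left and -4.63 on the right.

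Whether the step from other cells to interferon-high cells differed between genotypes was tested as an interaction over the 18 sums, with library as a factor. For Kmt2c KO against WT the ratio differed for 187 of 12493 genes, being larger for 87 (0.696%) and smaller for 100 (0.8%). Smaller ratios in Kmt2c KO were called for 8 of 12 GTPases (median difference -1.91), 7 of 22 class I genes and 4 of 29 effectors. The summed markers themselves went from 50.1, 43.6 and 51.4 CPM outside to 1123, 983 and 1905 inside in WT. In Kmt2c KO they went from 668, 961 and 1147 to 4745, 6501 and 6373. For genes that follow the markers, the choice of cells thus bears on the ratio, and its part in these calls was not tested. Without WT libraries 1, 2 and 3 in turn the GTPase calls numbered 2, 3 and 3. They numbered 3 and 5 without Kmt2c KO libraries 2 and 3, and the effector calls numbered 2 without WT library 1 and 10 without Kmt2d KO library 2. The log2 ratio of Iigp1 was 5.22, 4.18 and 5.50 in WT, 1.79, 1.60 and 1.44 in Kmt2c KO and 4.36, 1.81 and 3.77 in Kmt2d KO (difference -3.81 ± 0.67 (adjusted p = 0.00788)). Irf7 (-1.98 ± 0.24 (adjusted p = 0.000893)), Oasl2 (-2.31 ± 0.35 (adjusted p = 0.00219)) and Ccl5 (-2.19 ± 0.33 (adjusted p = 0.00219)) also had smaller ratios. The call on Iigp1 was lost without WT library 1 (adjusted p = 0.0536), and those on Irf7, Oasl2 and Ccl5 held under all 17 alternatives. Ly6e, a membrane protein that blocks virus entry, was the Ly6 gene that was called. Its log2 ratio was 0.19, 0.19 and 0.80 in WT, 1.11, 1.34 and 1.15 in Kmt2c KO and 1.15, 1.35 and 1.16 in Kmt2d KO, larger in Kmt2c KO (0.87 ± 0.12 (adjusted p = 0.00133)) and in Kmt2d KO (0.86 ± 0.12 (adjusted p = 0.0133)), and every knockout library exceeded every WT library.

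For Kmt2d KO against WT, 4 genes differed in their ratio (0.016% in each direction), Ly6e and Mmp3 with larger and Cavin2 and Gadd45a with smaller ratios, and the call on Ly6e was lost without WT library 1 or 2. For Kmt2d KO against Kmt2c KO edgeR called 0 (0.0%), with 708 at an unadjusted p under 0.05, 0 by DESeq2 and 97 without Kmt2d KO library 2. The Kmt2c KO count was 48, 62 and 387 without WT libraries 1, 2 and 3, 49 without Kmt2c KO library 2 and 398 without Kmt2d KO library 2. The Kmt2d KO count was at most 13 when any 1 of the other 8 libraries was left out and 99 without WT library 3.

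**Figure D5:**
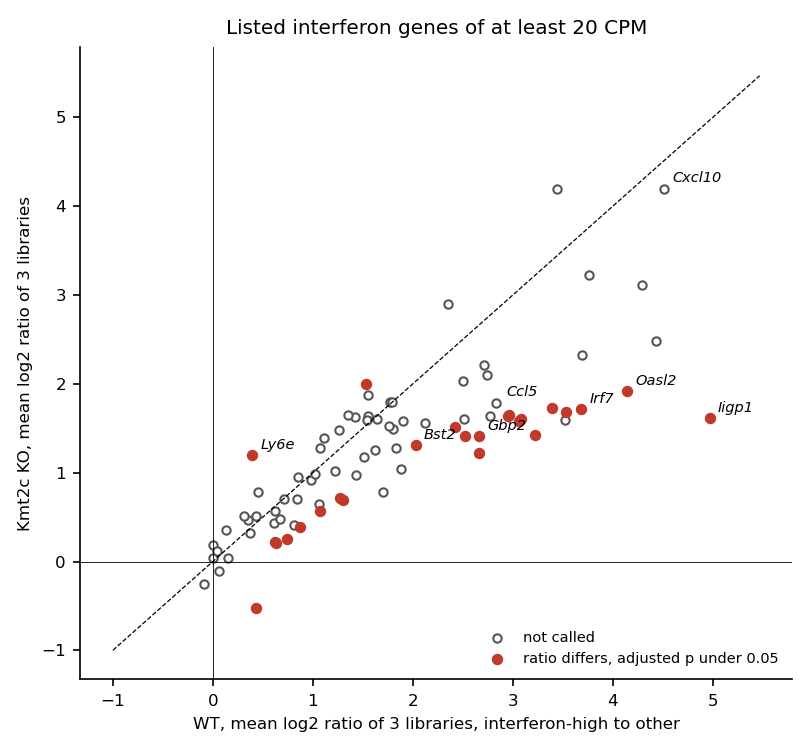
Mean log2 ratio of interferon-high to other tumour cells over the 3 libraries of WT (x) and Kmt2c KO (y), 1 point per listed interferon gene of at least 20 CPM. Filled points had an adjusted p under 0.05 for the difference by edgeR, and the dashed line marks equal ratios. Most called genes lie below the line, Iigp1 farthest, and Ly6e lies above it.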

How the data were processed

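Complete tumour suspensions were freed of dead cells on Percoll and run on a 10x 5′ HT v2 kit. The authors deposited 1 matrix of UMI counts per gene and cell, aggregated over the 9 libraries. The submitters' processing notes name Cell Ranger 7.0.1 and the build mm10. Cells were assigned to libraries by barcode suffix. A deposited table gives each suffix a genotype letter, and the study's names for its comparisons tie X to WT, C to Kmt2c KO and D to Kmt2d KO. In all, 0 columns outside the labelled samples were used. No doublet caller was run and free RNA was not estimated. Libraries of a group differed beyond sampling noise (chi-square per degree of freedom 4.89 to 119).

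Counts were summed per library over interferon-high and over other tumour cells. Genotypes were compared with edgeR 4.0.16 (filterByExpr, TMM, quasi-likelihood, all 9 libraries, Benjamini-Hochberg adjustment, threshold 0.05), with DESeq2 1.42.0 as an alternative (R 4.3.3). Ratios of high to other cells used a pseudocount of 1 CPM. The planned permutation test of shares past a common level was dropped, since the level uses the genes that chose the cells. Thinning used a fixed seed. The fits were run on simulated counts with the same spread for every gene and library, no outlying library and no choice of cells by expression. These settings differ from the data, so the simulation cannot give the error rate of the calls reported here. The members, lists and tests were chosen with earlier results of these data known. Named genes were the most abundant of each list and listed genes called in a genotype contrast, the 15 unlisted genes (at least 20 CPM) with the largest lowest ratio, the 5 with the nearest pattern, and per contrast the 5 largest called rises and falls without overlap between groups, gene models left out. The ranking by size can favour genes near 0 in 1 group, which passed the count filter through the other groups. Other names were chosen after their values were seen. Some genes picked by these rules are not reported here. Alternatives varied the tool, the filter, the groups in the fit, the libraries, the share chosen, the markers, the thinning and the cells kept. Other markers were used for shares, marker levels and list ratios only, and no genotype test was refitted with them. The ratio test was not run on cells with an H2BMc UMI only.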

Additional observations from a re-analysis of the deposited data

Results flagged for a closer look

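The ratio of interferon-high to other tumour cells differed between Kmt2c KO and WT by a test of the difference itself (edgeR's quasi-likelihood interaction test, Benjamini-Hochberg adjusted) for 187 genes, and between Kmt2d KO and WT for 4. For genes that follow the 5 markers, the ratio depends on the limit that chose the cells, which differed between libraries. For Ly6e, a membrane protein that blocks virus entry, the log2 ratio was larger by 0.87 in Kmt2c KO and by 0.86 in Kmt2d KO than in WT. The first call on Ly6e was lost among the top 5% of cells alone, and the second without WT library 1, without WT library 2 and among the top 5% or 10% of cells.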

How the results depend on the processing

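With 1 library left out at a time, called genes in interferon-high cells numbered 326 to 2372 for Kmt2c KO against WT, 23 to 204 for Kmt2d KO against WT and 0 to 1676 between the knockouts, and genes with a different high-to-other ratio 48 to 398, 0 to 99 and 0 to 97. The difference in the share of cells past the common level ran from 34.4 to 42.5 points (Kmt2c KO minus WT), 2.19 to 17.3 (Kmt2d KO minus WT) and -36.0 to -20.9 (Kmt2d KO minus Kmt2c KO). The 1388 called genes for Kmt2c KO against WT became 2092 (with no low-count filter), 2087 (with only the 2 groups in the fit), 379 (top 5%), 923 (cells with an H2BMc UMI only), 111 (cells past the common level). The 124 called genes for Kmt2d KO against WT became 270 (by DESeq2), 812 (with no low-count filter), 50 (with only the 2 groups in the fit), 9 (top 5%), 59 (top 10%), 228 (top 25%), 47 (cells with an H2BMc UMI only), 71 (cells of at least 4000 UMIs only), 6 (cells past the common level). The 0 called genes between the knockouts became 108 (by DESeq2), 736 (with no low-count filter), 6 (without cells with immune or endothelial marker UMIs). The 187 different ratios for Kmt2c KO against WT became 537 (with no low-count filter), 67 (top 5%), 88 (top 10%), 1183 (top 25%), 324 (chosen after thinning to 2000 UMIs). The 4 different ratios for Kmt2d KO against WT became 17 (by DESeq2), 184 (with no low-count filter), 2 (top 5%), 0 (top 10%), 228 (top 25%), 14 (chosen after thinning to 2000 UMIs), 54 (without cells with immune or endothelial marker UMIs). The 0 different ratios between the knockouts became 117 (with no low-count filter), 12 (top 5%), 1 (top 25%), 25 (without cells with immune or endothelial marker UMIs). Over the other levels, depths and markers the share differences ran from 13.6 to 53.5 points (Kmt2c KO minus WT), 3.05 to 21.4 points (Kmt2d KO minus WT), -33.8 to -10.5 points (Kmt2d KO minus Kmt2c KO), each with the sign of the value reported. Those that moved by more than the pooled SD of the 2 groups were for Kmt2c KO minus WT, 53.5 (1 or more UMIs), 24.2 (5 or more UMIs), 22.1 (thinned to 1000 UMIs), 51.5 (thinned to 4000 UMIs), 26.4 (Ifit1, Ifit3 and Isg15 only), 13.6 (Igtp and Ifi47 only), and for Kmt2d KO minus Kmt2c KO, -10.5 (Igtp and Ifi47 only). The median summed marker level of the chosen cells per 10000 UMIs became, in WT, 21.3 (top 5%), 8.45 (top 10%), 2.81 (top 25%), 2.84 (chosen after thinning to 2000 UMIs), 3.29 (chosen by Igtp and Ifi47), and in Kmt2c KO, 82.6 (top 5%), 62.1 (top 10%), 38.5 (top 25%), 36.5 (chosen by Igtp and Ifi47), and in Kmt2d KO, 38.5 (top 5%). List medians of the high-to-other log2 ratio that moved were for negative regulators 0.54 (top 5%), 0.36 (top 10%), 0.19 (chosen by Ifit1, Ifit3 and Isg15), for nucleic acid sensors 2.07 (top 5%), 1.42 (top 25%), 1.37 (chosen after thinning to 2000 UMIs), 1.19 (chosen by Igtp and Ifi47), for antiviral effectors 2.24 (top 5%), 1.53 (top 25%), 1.51 (chosen after thinning to 2000 UMIs), 1.36 (chosen by Igtp and Ifi47), for chemokines 0.87 (chosen by Igtp and Ifi47), for NF-kB feedback and acute phase 0.27 (chosen after thinning to 2000 UMIs), for cell death 1.02 (top 5%), 0.45 (top 25%), for epithelial -0.51 (top 5%), -0.26 (without cells with immune or endothelial marker UMIs), -0.52 (chosen by Igtp and Ifi47). In the cells past the common level, the Kmt2c KO minus WT log2 fold change turned negative, with none of these called, for Ddx58 -0.20, Dhx58 -0.44, Eif2ak2 -0.70, Ifi205 -0.58, Lgals9 -0.46, Mlkl -0.13, Oasl2 -0.086, Phf11b -0.14, Sp110 -0.12, Tmem140 -0.24, Tor3a -0.93, Trim30a -0.33, Trim30d -0.14, Usp18 -0.35. The Kmt2c KO minus WT log2 difference in the high-to-other ratio of Cxcl9, -3.20 with all libraries, ran from -4.69 (without WT library 2) to 0.80 (without WT library 3), and that of Trim30a, 0.55 in the top 15%, was -0.20 among the top 5%. The causes were not tested. The settings that kept cells of at least 4000 UMIs or cells past the common level were chosen after seeing the data. No paired analysis was possible because the libraries of the deposited matrix carry no replicate number. WT libraries 1 and 3 gave 108 and 74 interferon-high cells, and the part of these numbers in the contrasts with WT was not tested.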
